A study of Homo sapiens with 4 samples.

Results

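The kallikreins and other secreted products of the prostate were followed in LNCaP, an androgen-responsive line derived from a metastasis of a human prostate cancer. The group was defined by name as 8 genes (KLK2, KLK3, KLK4, KLK10, KLK11, ACPP, MSMB and AZGP1), and its members were every probe set of the array whose annotation named 1 of them alone. That gave 12 of the 22215 probe sets, for 7 of the 11963 genes that at least 1 probe set named alone. ACPP is listed under its current symbol, ACP3. No probe set used here named KLK4, which was not analysed here, and 1 probe set that named a member together with another gene was left out. Of the 12, 9 probe sets of 5 genes were bright enough to be tested, and the 3 of KLK10 and KLK11 were not.

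The cells were grown in serum-containing medium and transfected by lipofection for 24 hours. One group of 2 samples received a vector expressing MED1, a Mediator subunit that nuclear receptors bind when they recruit RNA polymerase II. The other 2 received the vector without an insert. Transfection was transient, so each sample mixes cells that took up the vector with cells that did not, in a proportion the labels do not give. Total RNA was hybridised to Affymetrix arrays, 1 per sample. The single comparison, MED1 against empty vector, asks which transcripts differ in cells given extra MED1.

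Kallikrein-related peptidases are secreted serine proteases encoded side by side on chromosome 19. In the luminal cells of the prostate, KLK2 and KLK3 are transcribed in response to androgen. KLK3 is prostate-specific antigen, which cleaves the semenogelins and so liquefies semen, and KLK2 is a trypsin-like relative that can activate its precursor. The same cells secrete prostatic acid phosphatase (ACP3), beta-microseminoprotein (MSMB) and zinc-alpha-2-glycoprotein (AZGP1) into the seminal fluid.

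KLK3 and KLK2 are direct neighbours in the RefSeq annotation, with 0 genes between them. The 250 bases before their start sites are shown because these 2 genes hold 5 of the 9 tested probe sets. The upstream sequences of the 2 genes are also alike over most of their aligned bases. Capitals mark the longest run that both windows share, which is 80 bases. RefSeq (GRCh38.p14) places both on the plus strand, at chr19:50854665-50854914 for KLK3 and chr19:50873189-50873438 for KLK2.
KLK3: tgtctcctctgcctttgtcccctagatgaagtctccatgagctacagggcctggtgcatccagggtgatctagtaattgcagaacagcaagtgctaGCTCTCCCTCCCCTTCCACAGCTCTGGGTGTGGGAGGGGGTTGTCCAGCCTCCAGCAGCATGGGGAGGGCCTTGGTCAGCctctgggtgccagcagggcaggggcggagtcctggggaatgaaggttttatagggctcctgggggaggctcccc
KLK2: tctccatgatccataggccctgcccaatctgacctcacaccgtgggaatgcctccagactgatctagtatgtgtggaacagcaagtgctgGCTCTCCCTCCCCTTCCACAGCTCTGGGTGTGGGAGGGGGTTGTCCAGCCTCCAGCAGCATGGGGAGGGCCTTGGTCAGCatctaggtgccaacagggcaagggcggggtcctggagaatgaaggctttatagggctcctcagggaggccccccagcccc

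In a global alignment the KLK3 and KLK2 windows were identical at 199 of 241 aligned bases (82.6%), a share that leaves out 18 gap positions. Counted from the start site, the shared run spans bases -154 to -75 of KLK3 and -160 to -81 of KLK2. Of the 8 member genes 7 matched entries in the RefSeq table of upstream windows. The hexamer AGAACA, 1 arm of the paired element that steroid receptors bind, was searched on both strands. It lies at -170 to -165 in the KLK3 window and in no other member's, and 12.4% of all 35116 windows of this length hold it. Only these exact letters were searched. Just before the shared run, KLK2 reads GGAACA where KLK3 reads AGAACA. The lack of a match in KLK2 therefore does not show that it lacks such an element. The letters TTTATAG, which resemble a TATA box, lie at -28 to -22 in KLK3 and -34 to -28 in KLK2, and 2.96% of all windows hold them. Both motifs were chosen after the sequences were seen, and a match describes letters, not binding.

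At baseline, in the empty vector samples, the 12 probe sets spanned signals from 1.46 to 8663. Signals are MAS5 intensities in arbitrary units, and because probes differ in affinity their sizes are not compared between probe sets. KLK2 read 8117 and 8663 by its probe set 209854_s_at, 2458 and 2687 by 210339_s_at, and 278 and 344 by 209855_s_at. KLK3 read 4166 and 4208 by 204582_s_at and 2690 and 2355 by 204583_x_at. Each probe set was followed on its own. ACP3 read 312 and 353 and AZGP1 225 and 194. MSMB read 184 and 177 by 210297_s_at and 208 and 128 by 207430_s_at. KLK10 and KLK11 read at most 23.7 on any array, under the filter signal of 31, so for them no difference was tested.

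**Figure D1:**
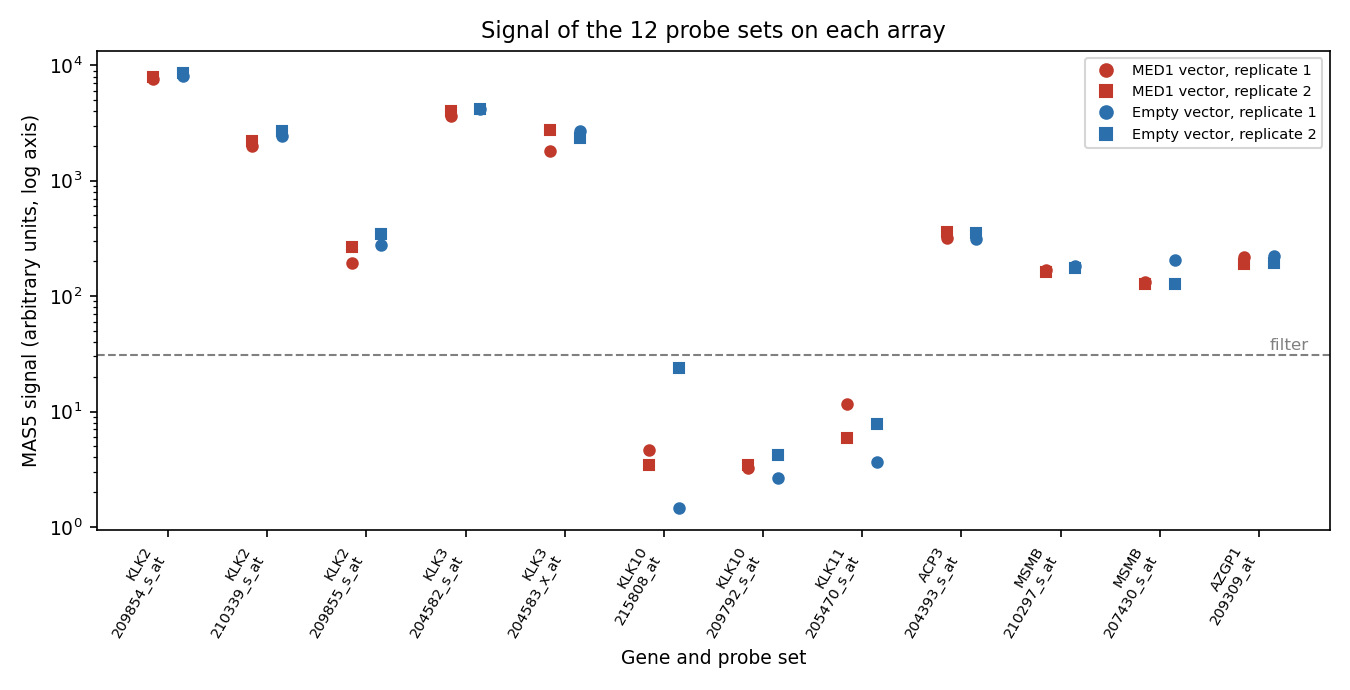
MAS5 signal (log axis) of the 12 probe sets on each of the 4 arrays, with MED1 samples in red and empty vector samples in blue. The dashed line is the filter signal of 31: the 3 probe sets of KLK10 and KLK11 lie under it, and the 9 of KLK2, KLK3, ACP3, MSMB and AZGP1 above.

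The transfected gene itself was higher by 1 of its 2 probe sets. MED1 read 559 and 807 in the MED1 samples, against 292 and 315 with the empty vector by 203496_s_at (log2 fold change 1.11 ± 0.16, SE; limma, adjusted p = 0.032), and 1172 and 1074 against 1097 and 1011 by 203497_at (0.09 ± 0.10, adjusted p = 0.83). The vector's insert is not given, so which probe sets it would reach is not known.

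None of the 9 tested probe sets passed in the comparison of MED1 with empty vector (limma, Benjamini-Hochberg adjusted p under 0.05), where 0.293% of all 13329 tested probe sets did. At an unadjusted p under 0.05, 2 of the 9 passed, both of KLK2 and both lower in the MED1 samples, against 9.2% of all tested probe sets in either direction and 5.2% lower. Log2 fold changes of the 9 ranged from -0.43 to 0.03 with a median of -0.13, and 8 were negative. Over all tested probe sets the median was -0.02 and 53.5% were negative. When each array was left out in turn, the median of the 9 ran from -0.19 without MED1 replicate 2 to -0.08 without empty vector replicate 1. Both MED1 arrays lay below both empty vector arrays for 5 of the 9 (3 of KLK2, 1 each of KLK3 and MSMB), above for 0 and overlapping for 4, where 22.6% of all tested probe sets lay below in this way and 17.2% above. These 9 are not independent measurements, since several are probe sets of the same gene and all were read on the same arrays. Probe sequences were not used here, so whether KLK2 and KLK3 probe sets also match the RNA of the other gene was not checked. In bulk RNA, fewer cells expressing a gene and less RNA per cell cannot be told apart.

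The scaling of the arrays bears on these counts. When each array was centred on its median, the median of all tested probe sets moved to 0.04, with 41.5% negative, and that of the 9 to -0.08, with 7 negative. Only KLK2 210339_s_at and 209855_s_at, 2 of the 9, then lay below the empty vector arrays without overlap, where 15.7% of all tested probe sets did and 24.8% lay above. KLK2 210339_s_at, with a log2 fold change of -0.24, was then the 1 probe set of the 9 under the unadjusted limma threshold, which 9.54% of all passed. With quantile normalization 4 of the 9 lay below, where 20.6% of all did, and KLK2 209855_s_at was the one that no longer did.

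The lowest log2 fold change of the group was that of a KLK2 probe set, and this gene is described first. The KLK2 probe set of lowest unadjusted p, 210339_s_at, read 1994 and 2199 in the MED1 samples, against 2458 and 2687 with the empty vector. The arrays did not overlap, and the higher MED1 array was at 85.5% of the empty vector mean. The log2 fold change was -0.29 ± 0.10 (SE), with a 95% interval from -0.52 to -0.07 that is not adjusted for the number of probe sets tested (limma, unadjusted p = 0.015, Benjamini-Hochberg adjusted p = 0.428). Of all tested probe sets, 8.75% had a lower log2 fold change.

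The dimmest KLK2 probe set, 209855_s_at, read 192 and 265 in the MED1 samples, against 278 and 344 with the empty vector. The groups again did not overlap, but the higher MED1 array and the lower empty vector array were close, and the 2 MED1 samples differed from each other more than that. Its log2 fold change was -0.43 ± 0.18 (SE; interval -0.83 to -0.03; limma, unadjusted p = 0.0383, adjusted p = 0.502). Without MED1 replicate 1 it was -0.21, without MED1 replicate 2 it was -0.65, and without empty vector replicate 2 it was -0.28.

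The brightest KLK2 probe set, 209854_s_at, read 7584 and 7934 in the MED1 samples, against 8117 and 8663 with the empty vector. MED1 arrays were at 90.4% and 94.6% of the empty vector mean. The log2 fold change was -0.11 ± 0.10 (SE; interval -0.34 to 0.11; limma, adjusted p = 0.767). It was -0.07 without empty vector replicate 2, and -0.06 with centring, where its groups overlapped. As deposited, all 3 KLK2 probe sets had MED1 arrays below empty vector arrays, with log2 fold changes from -0.11 to -0.43, and none passed.

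KLK3 gave the same sign by both probe sets. The probe set 204582_s_at read 3659 and 3990 in the MED1 samples, against 4166 and 4208 with the empty vector, with no overlap. Its log2 fold change was -0.13 ± 0.09 (SE; interval -0.34 to 0.08), and on the scale of signal + 16 the interval runs from a change of -21.2% to one of 5.78%. It did not pass (limma, adjusted p = 0.702). The log2 fold change was -0.07 without MED1 replicate 1, and -0.08 with centring, where the groups overlapped. The probe set 204583_x_at is of the kind Affymetrix marks as possibly matching other transcripts, and read 1807 and 2742 against 2690 and 2355. Its 2 MED1 arrays were the lowest and the highest of the 4. The log2 fold change was -0.18 ± 0.17 (SE; limma, adjusted p = 0.796), and without MED1 replicate 1 it was 0.12, so its sign rested on that array.

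**Figure D2:**
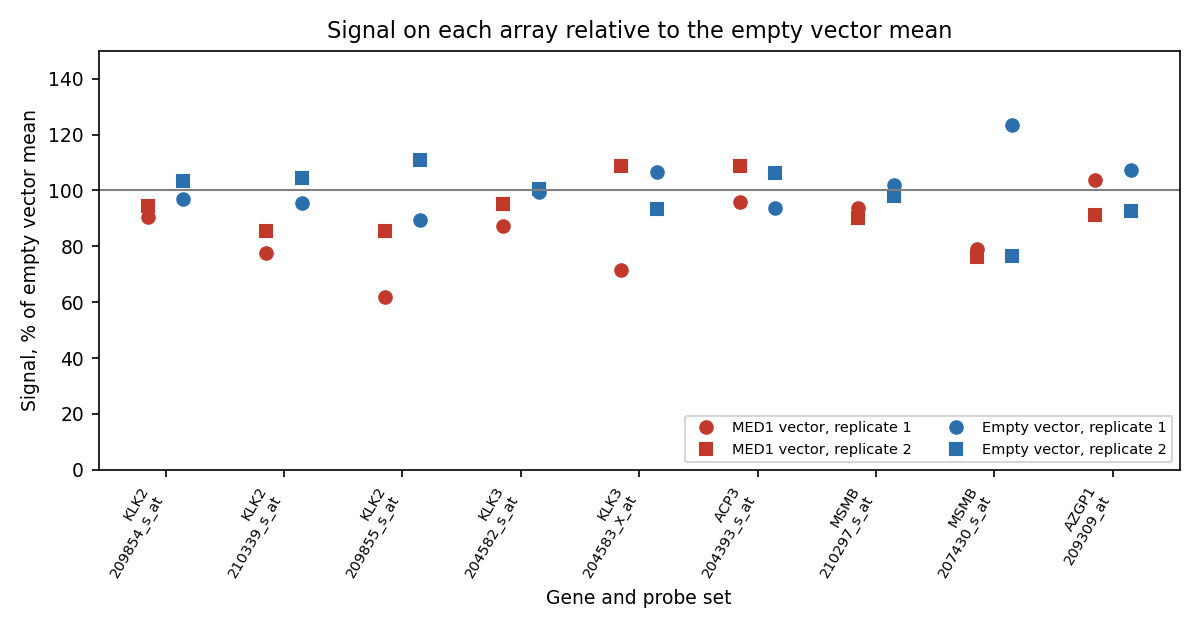
Signal of the 9 tested probe sets on each array as a percentage of the empty vector mean of that probe set (axis from 0), with MED1 samples in red and empty vector samples in blue. On these signals as deposited, both red points lie below both blue points for the 3 KLK2 probe sets, KLK3 204582_s_at and MSMB 210297_s_at. Of all tested probe sets, 22.6% lie below in this way. For KLK3 204583_x_at and MSMB 207430_s_at 1 array lies far from its replicate.

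The secreted products outside the kallikrein family did not pass either. ACP3, a phosphatase used as a serum marker of prostate cancer before prostate-specific antigen, read 319 and 362 in the MED1 samples, against 312 and 353 with the empty vector. The groups overlapped, with replicate 1 lower than replicate 2 in both. The log2 fold change was 0.03 ± 0.13 (SE; interval -0.26 to 0.33; limma, adjusted p = 0.965). Without MED1 replicate 2 it was -0.05.

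AZGP1, a secreted protein with the fold of MHC class I heavy chains, read 217 and 191 in the MED1 samples, against 225 and 194 with the empty vector. The groups overlapped. Its log2 fold change was -0.03 ± 0.15 (SE; interval -0.38 to 0.31; limma, adjusted p = 0.969), and it was 0.02 when each array was centred on its median, so no direction is given.

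MSMB, one of the main proteins of prostatic secretion, read 169 and 163 in the MED1 samples, against 184 and 177 with the empty vector by 210297_s_at. These groups did not overlap, and the log2 fold change was -0.11 ± 0.15 (SE; interval -0.45 to 0.23; limma, adjusted p = 0.865). With centring it was -0.06 and the groups overlapped. By 207430_s_at it read 133 and 128 against 208 and 128, so that 1 empty vector array was high and the other 3 arrays lay together. The log2 fold change of -0.30 ± 0.21 (SE; limma, adjusted p = 0.704) became 0.02 without empty vector replicate 1.

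**Figure D3:**
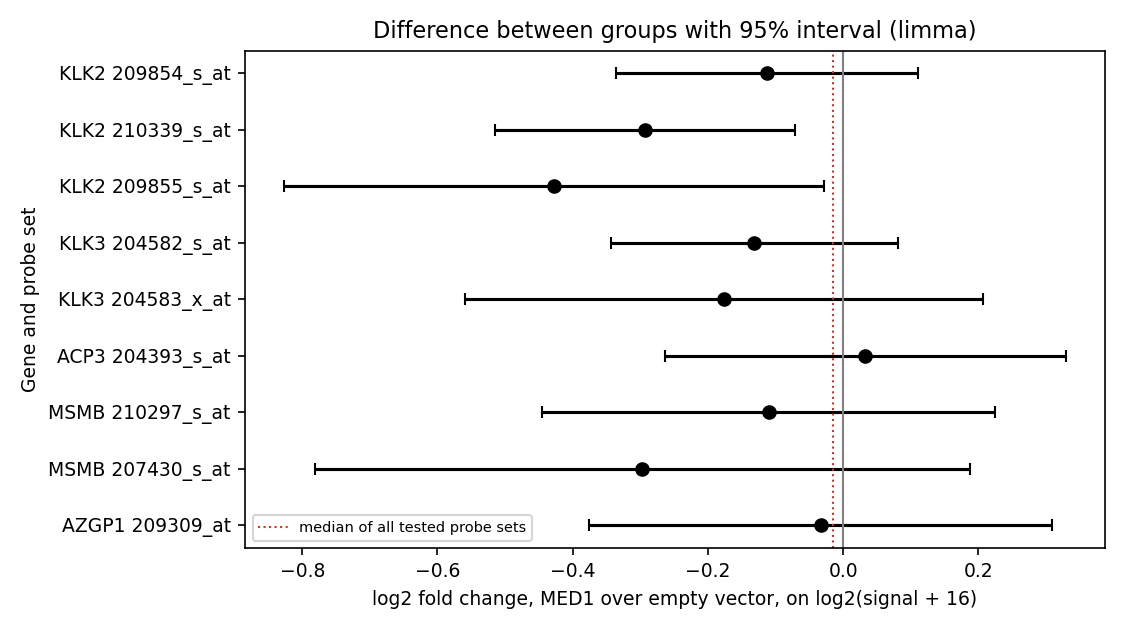
Log2 fold change of MED1 over empty vector for the 9 tested probe sets, with 95% intervals from limma (not adjusted for multiple tests) and the median of all tested probe sets as a dotted line. The intervals of KLK2 210339_s_at and 209855_s_at lie below 0 and the other 7 include it. Of all tested probe sets, 9.2% had an unadjusted p under 0.05 (limma) in either direction and 5.2% lower with MED1. None of the 9 passed after adjustment.

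KLK10 and KLK11 gave no usable difference. KLK11 read 11.6 and 5.86 in the MED1 samples, against 3.65 and 7.74 with the empty vector. KLK10 read 3.26 and 3.45 against 2.67 and 4.18 by 209792_s_at, and 4.68 and 3.46 against 1.46 and 23.7 by 215808_at. The groups overlapped in every case, and without detection calls these signals have no known background.

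Agreement between probe sets was tested as the difference, within each array, between the 2 brightest tested probe sets of a gene on the scale log2(signal + 16). Of 2630 genes with 2 or more tested probe sets, 0 (0%) passed (limma, Benjamini-Hochberg), and 164 (6.24%) had an unadjusted p under 0.05. The members with such pairs were KLK2, KLK3 and MSMB, and 0 of the 3 passed at either threshold. For KLK2, 209854_s_at exceeded 210339_s_at by 1.92 and 1.84 in the MED1 samples, against 1.72 and 1.68 with the empty vector. The brighter probe set had the fold change nearer to 0, and the fold changes differed by 0.18 ± 0.15 (SE; interval -0.19 to 0.55; limma, adjusted p = 0.859). For KLK3 the fold changes of the probe sets differed by 0.04 ± 0.21 (interval -0.47 to 0.56) and for MSMB by 0.19 ± 0.22 (interval -0.35 to 0.73). These intervals are wider than the fold changes themselves, so neither likeness nor difference between probe sets of a gene is shown. The third KLK2 probe set differed from the brightest by 0.32 and from the middle one by 0.13, without a test.

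Averaging the tested probe sets of each gene gave a log2 fold change of -0.28 ± 0.10 for KLK2 (SE; limma, unadjusted p = 0.0301, adjusted p = 0.435), -0.15 ± 0.12 for KLK3 (adjusted p = 0.711) and -0.20 ± 0.15 for MSMB (adjusted p = 0.694). Taking the brightest tested probe set of each gene instead, the 5 genes had a median of -0.11, against -0.02 over 7957 genes treated alike; with centring that of the 5 was -0.06.

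Other genes around the members were taken from lists by name. Of 10 other kallikreins, 9 had probe sets and 4 were tested, and 0 rose and 0 fell; the median log2 fold change was -0.03. KLK1, tissue kallikrein, gave 0.07 ± 0.23, and KLK15 gave -0.06 ± 0.28 (SE). Of 16 other secreted or surface prostate products, 8 were tested and 0 passed in either direction, with a median of -0.09. TMPRSS2, an androgen-induced membrane serine protease, read 1351 and 1459 in the MED1 samples, against 1658 and 1830 with the empty vector by 211689_s_at. That is a log2 fold change of -0.31 ± 0.10 (SE; limma, adjusted p = 0.392), and a second probe set, 205102_at, gave 0.17 ± 0.13. PIP, a secreted prolactin-inducible protein, gave 0.29 ± 0.28.

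Of 15 kallikrein inhibitors, substrates and receptors, 5 were tested and 0 passed, with a median of -0.04. IGFBP3, a growth factor carrier that KLK3 can cleave, read 221 and 251 in the MED1 samples, against 154 and 176 with the empty vector (log2 fold change 0.48 ± 0.15, SE; limma, adjusted p = 0.386). The arrays did not overlap, and the interval ran from 0.14 to 0.82. SLPI, a secreted protease inhibitor, gave -0.20 ± 0.19. Of 12 transcription factors and cofactors, 10 were tested and 0 passed, with values from -0.10 to 0.12. FOXA1 and HOXB13, which act at prostate enhancers, gave -0.04 ± 0.12 and 0.10 ± 0.12, GATA2 -0.09 ± 0.09 and CTNNB1 0.10 ± 0.11 (SE).

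**Figure D4:**
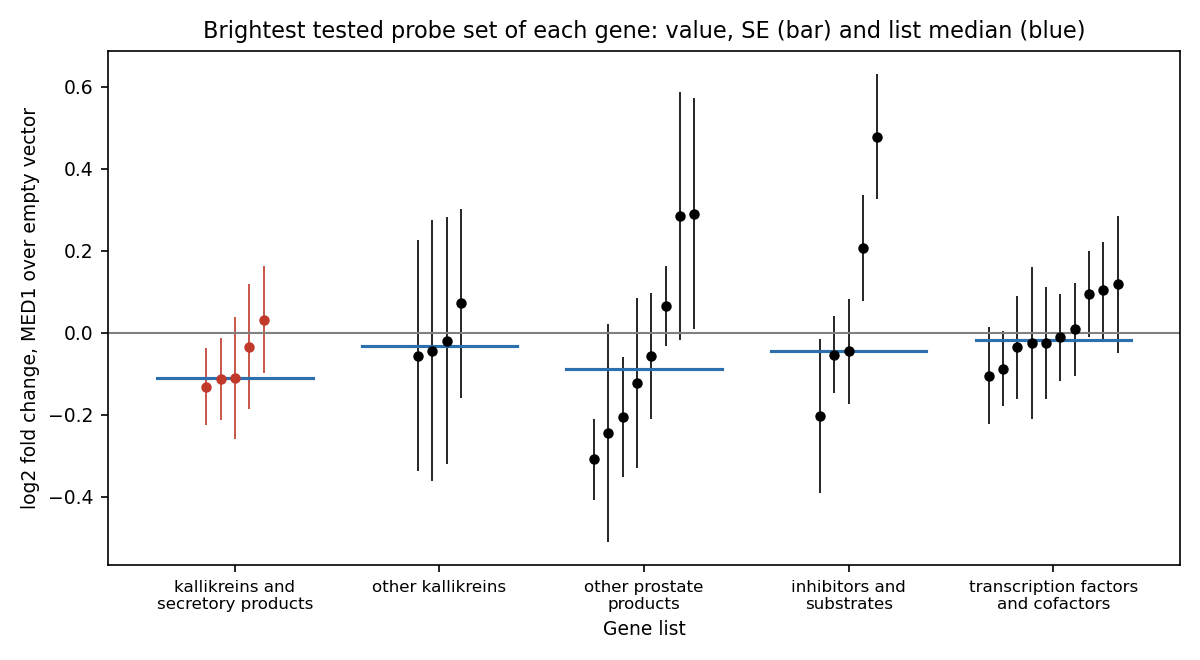
Log2 fold change of MED1 over empty vector for the brightest tested probe set of each gene, by list, with SE bars and the list median as a blue line. The 5 kallikreins and secretory products (red) have a median of -0.11; the lowest point of the other lists is TMPRSS2 at -0.31 and the highest IGFBP3 at 0.48, and none passed.

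The labelled cell type was checked against marker lists, summing for each list the brightest probe set of each gene. The luminal prostate list had 4 of 5 genes measured, all above the filter, and summed to 10269 to 10969 in the MED1 samples, against 10107 to 11797 with the empty vector. KRT18 was its brightest gene, with a mean signal of 7653, so these sums mostly follow that gene. Basal prostate (1 of 4 above the filter), fibroblast (1 of 5), leukocyte (0 of 3) and endothelial (1 of 5) lists summed to at most 251 on any array, with groups overlapping. The neuroendocrine list, with ENO2 alone of 4 above the filter, summed to 118 and 137 in the MED1 samples, against 217 and 315 with the empty vector. These sums mostly follow ENO2, which had a mean signal of 173. ENO2 did not pass (log2 fold change -0.97 ± 0.18, SE; limma, adjusted p = 0.098), so a difference in this list rests on 1 gene that was not called. The part of this list in the values above was not tested.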

How the data were processed

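The authors deposited linear signal intensities made with MAS5, per the submitters' processing notes; its version and all other upstream steps are not given there. MAS5 scales each array to a common level, and no further scaling was applied. Titles, source names and the transfection field gave the groups; they overrode a free-text description that puts the MED1 vector in all 4 samples. After 62 controls were left out, signals became log2(value + 16), and probe sets with a mean of these under the 40th percentile were dropped (8886, leaving 13329). The comparison used lmFit and eBayes with an intensity trend (limma 3.58.1, R 4.3.3), adjusted by Benjamini-Hochberg over all tested probe sets at 0.05. Fold changes on this scale understate those of dim probe sets. Tests are two-sided. Each group has 2 arrays, and the labels do not say whether these are separate cultures, so the spread behind each p-value may be technical only. The number of arrays limits the precision. Genes were named by the platform annotation. Named genes were MED1, the members, FOXA1, HOXB13 and, from each list, the genes of lowest unadjusted p in each direction, as none passed; genes that no probe set named alone were not analysed here. TMPRSS2 205102_at, ENO2 and KRT18 were added after their values were seen. Members and lists were chosen with earlier results of these data known. Upstream windows were aligned with Biopython 1.88 and plots drawn with matplotlib 3.10.9. The fits were tested on simulated data with planted differences larger than any seen in the members. Those simulations therefore do not show how well differences of the members' size would be found. The additional observations give the alternatives and their effects.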

Additional observations from a re-analysis of the deposited data

How the results depend on the processing

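The count of member probe sets that passed was 0 under all 13 alternatives: a pseudocount of 1 or 64, quantile normalization, median centring, a 60th-percentile filter or none, robust eBayes, eBayes with no trend, the replicate block, and leaving out each array (where the single array left is taken to vary like the opposite group). The lowest adjusted p of any was 0.0565, for KLK3 204583_x_at without MED1 replicate 2. With the replicate block, KLK2 210339_s_at had an adjusted p of 0.0708 (limma). Deviations of same-numbered arrays from their group means correlated at 0.12 across 13329 probe sets. There are only 2 pairs of arrays, too few to treat the numbers as pairing. Of 115 values (9 probe sets, fewer where MSMB fell under the stricter filter), 108 kept their direction and 7 turned, none of them called. AZGP1 turned to 0.0185 with centring. When each array was left out, ACP3 ranged from -0.053 to 0.119 and AZGP1 from -0.13 to 0.0655. KLK3 204583_x_at ranged from -0.47 to 0.12 and MSMB 207430_s_at from -0.61 to 0.0188. Every KLK2 probe set and KLK3 204582_s_at stayed negative in all 13 alternatives, and MSMB 210297_s_at in all 12 that tested it. With each array left out, KLK2 209854_s_at ran from -0.16 to -0.065, 209855_s_at from -0.65 to -0.21 and 210339_s_at from -0.36 to -0.22. In the same fits KLK3 204582_s_at ran from -0.19 to -0.069 and MSMB 210297_s_at from -0.14 to -0.083. The count of passing probe sets over the whole array was 39, but 0 with no filter (limma; 1226 at an unadjusted p under 0.05 in the filtered table), 5 without the trend, 239 with the replicate block, and 26 to 232 in the leave-one-out fits (without replicate 1 of the MED1 group 90, its replicate 2 232, replicate 1 of the empty vector group 70, its replicate 2 26); the cause was not tested. Signals under the filter have no known background.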
